A study of Mus musculus with 2 samples.

Results

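The genes described here encode proteins of the Z-disc, the plate that joins neighbouring sarcomeres of a muscle fibre, and are the sarcomeric alpha-actinins Actn2 and Actn3, the calsarcins Myoz1, Myoz2 and Myoz3, the titin cap Tcap, the PDZ-LIM genes Ldb3, Pdlim3 and Pdlim7, and the myotilin gene Myot. They were chosen by symbol as a functional group and not by a cut on their values, though earlier results of these data were known. They were 10 of the 55536 annotated genes in the deposited gene tables. The tissue was the gastrocnemius, a calf muscle made mostly of fast fibres, from female B6CASTF1/J mice 14 days old, with no treatment, transgene or deletion named. These mice are first-generation hybrids of C57BL/6J and CAST/EiJ, and reads of both parental alleles were measured together. The series held 2 total RNA libraries of 300 ng each, replicates 1 and 2 of 1 group, so no condition was compared. Both library descriptions name 3 females, but the tissue text of replicate 2 names a single female and both carry 1 donor identifier. Whether each library was 1 animal or a pool was therefore not clear, and the spread between them may be technical. The gene tables held 35592003 and 42105856 expected counts in replicates 1 and 2, spike-ins left out. Levels are TPM, abundance per length scaled over all features, given for replicate 1 and then replicate 2 or as mean ± SD (n = 2).

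Alpha-actinin crosslinks the actin filaments that enter the Z-disc from both sides, and titin anchors there through alpha-actinin and the titin cap. The calsarcins bind alpha-actinin and the phosphatase calcineurin, and the PDZ-LIM proteins and myotilin also bind alpha-actinin. In human muscle ACTN3 is restricted to fast fibres while ACTN2 is present in all fibres. Whether ACTN2 is in all fibres of this mouse muscle was not measured. Calsarcin-2 (Myoz1) belongs to fast fibres and calsarcin-1 (Myoz2) to slow fibres and heart.

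The labelled tissue was checked by markers. All 11 fast-fibre genes reached 1 TPM in both, led by Mylpf, Myl1 and Myh4, and summed to 100987 and 106313 TPM. The 9 slow-fibre genes, led by Mybpc1, Myl2 and Myh7, summed to 2214 and 3108 TPM. Of the 6 heart markers, Nppa, Nppb and Myl7 were listed at 0 in both libraries. The other heart markers were detected, with Myh6 at 63.3 and 104 TPM, Myl4 at 5.43 and 7.66 TPM and Tnni3 at 0.760 and 0.810 TPM. A second deposited quantification gave Myh6 only 33.4 and 47.0 TPM. The deposited posterior standard deviation of its gene count was 22.95 and 33.52, the same values as for Myh7. In bulk tissue, fewer cells of a type and less RNA per cell cannot be told apart.

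Levels of the 10 genes ran from 28.8 TPM for Myoz3 to 2827 TPM for Actn3, a rank of 1890 to 18 among 22015 nuclear protein-coding genes. Together they summed to 7306 and 6907 TPM, or 0.740% and 0.700% of the TPM of all genes. The order by mean was Actn3, Myoz1, Ldb3, Actn2, Tcap, Myot, Pdlim7, Pdlim3, Myoz2 and Myoz3, and all 9 neighbouring pairs had this order in both libraries. The deposited intervals surround the deposited posterior mean and can lie wholly below the TPM given here. The deposited intervals of neighbours were apart in both libraries for 8 pairs, with Ldb3 and Actn2 the exception. Taking the range between libraries as the error, 6 neighbours were apart, and Ldb3 with Actn2, Tcap with Myot and Pdlim7 with Pdlim3 were not. With the second quantification Tcap over Myot and Myot over Pdlim7 had this order in 1 library only. The deposited posterior standard deviation of the gene count was 0 for all 10 genes in both libraries, so none of their reads was divided with another gene in the gene tables.

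**Figure D1:**
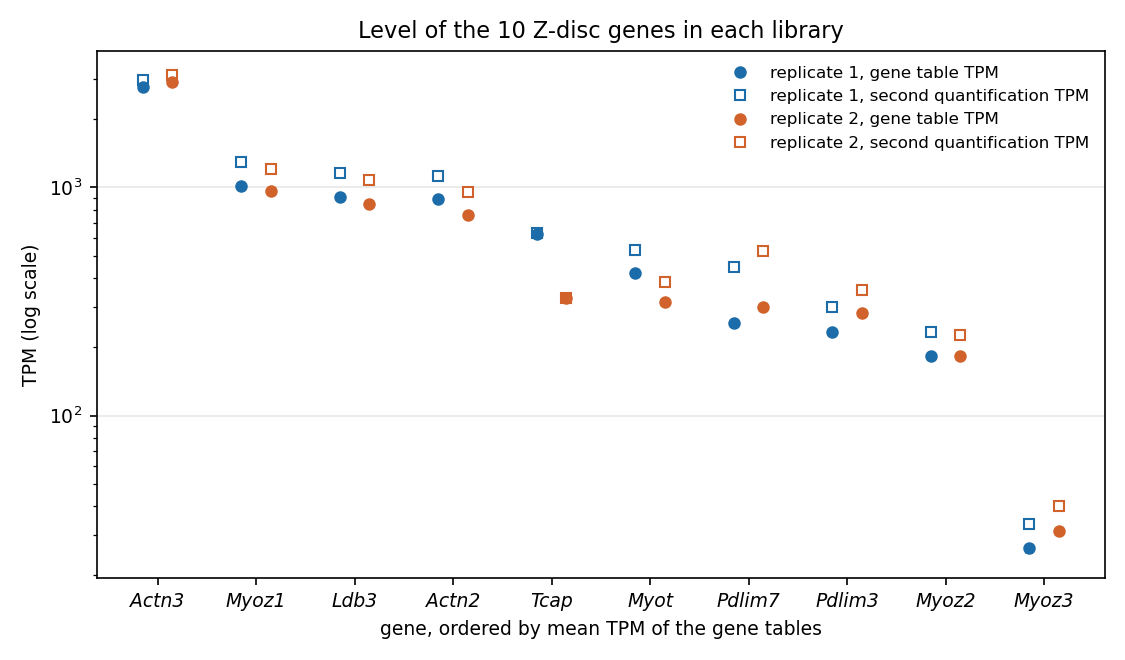
TPM of the 10 genes on a log axis, with replicate 1 in blue and replicate 2 in orange. Filled circles are the gene tables with the deposited interval as a bar mostly hidden by the marker, and open squares are the second quantification. The interval surrounds the posterior mean and not the circle, as for Actn3 in replicate 1, at 2755 TPM with an interval of 2671 to 2708. Tcap is the gene whose replicates lie farthest apart, at 623 and 328 TPM.

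The sarcomeric alpha-actinins are a close pair of genes, and some of their coding exons are shown because the level of each depends on telling them apart. Actn3 (ENSMUSG00000006457.4; chromosome 19, 4861216 to 4877909, minus strand of mm10) and Actn2 (ENSMUSG00000052374.16; chromosome 13, 12269426 to 12340760, minus strand) each have 21 exons in the most abundant transcript, and all 19 internal exons are equal in length. The coding sequences, of 2700 and 2682 bases, were identical at 74.7% of 2700 aligned columns, and the longest run of bases that both hold was 51. Over the 19 exon pairs identity ranged from 66.7% to 88.5%, with a median of 75.8%. Capitals mark the bases that differ between the genes in the most similar pair, exon 4 of 87 bases, with 10 differences (chr19:4871771-4871857 and chr13:12308900-12308986, minus strands), and in the least similar pair, exon 15 of 183 bases, with 61 differences (chr19:4863971-4864153 and chr13:12278794-12278976, minus strands).
Actn3 exon 4: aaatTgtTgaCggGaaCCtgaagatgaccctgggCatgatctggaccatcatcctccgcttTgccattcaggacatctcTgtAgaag
Actn2 exon 4: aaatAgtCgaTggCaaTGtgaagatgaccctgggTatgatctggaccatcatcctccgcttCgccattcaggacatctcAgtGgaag
Actn3 exon 15: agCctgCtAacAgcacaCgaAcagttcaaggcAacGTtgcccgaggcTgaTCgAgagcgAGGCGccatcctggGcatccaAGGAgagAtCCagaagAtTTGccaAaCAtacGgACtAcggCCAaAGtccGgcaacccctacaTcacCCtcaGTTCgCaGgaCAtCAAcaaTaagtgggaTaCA
Actn2 exon 15: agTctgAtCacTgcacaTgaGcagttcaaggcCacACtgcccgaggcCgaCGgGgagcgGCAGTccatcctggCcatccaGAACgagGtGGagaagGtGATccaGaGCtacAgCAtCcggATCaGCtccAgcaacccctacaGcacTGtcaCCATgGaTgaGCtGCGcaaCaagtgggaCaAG

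Actn3, the alpha-actinin of fast fibres, was the highest of the group, at 2755 and 2899 TPM. Actn2, the other sarcomeric form, stood at 886 and 758 TPM, with 72357 and 71728 counts against 188636 and 232755 for Actn3. Actn3 was therefore 3.11-fold higher than Actn2 in replicate 1 and 3.83-fold higher in replicate 2, a log2 ratio of 1.79 ± 0.21. With the second quantification the log2 ratio was 1.55. The Actn3 level, and so its share of the family, included 513 and 484 TPM given to the noncoding transcript Actn3-202. The second quantification put that transcript at 0. The coding Actn3-201 alone stood at 2243 and 2415 TPM, and Actn2-201 at 878 and 754 TPM. Of the summed alpha-actinin TPM, Actn3 held 76.5% ± 2.28 and Actn2 22.3% ± 2.60. The non-muscle alpha-actinins Actn4 and Actn1, crosslinkers of actin outside the sarcomere, were lower. Actn4 stood at 28.2 and 41.9 TPM, or 0.767% and 1.13% of the family. Actn1 stood at 7.27 and 11.0 TPM, or 0.198% and 0.296%. Actn2 exceeded Actn4 by a log2 ratio of 4.58 ± 0.56 and Actn1 by 6.52 ± 0.58. Actn3 exceeded Actn4 by 6.36 ± 0.35 and Actn1 by 8.30 ± 0.37.

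Among the calsarcins, the fast-fibre gene Myoz1 (chromosome 14, 20649107 to 20656540, minus strand) was highest at 1017 and 968 TPM. Myoz2 (chromosome 3, 123006206 to 123035015, minus strand) stood at 183 and 182 TPM, with 5435 and 6281 counts, the closest agreement between libraries of the group on the TPM scale. Myoz3, the third calsarcin, on chromosome 18 from 60573750 to 60591788 (minus strand), was the lowest, at 26.4 and 31.3 TPM with 2476 and 3396 counts. Myoz1 held 82.5% ± 0.699 of the family, against 14.9% and 15.4% for Myoz2 and 2.15% and 2.65% for Myoz3. On the log2 scale Myoz1 exceeded Myoz2 by 2.44 ± 0.05 and Myoz3 by 5.11 ± 0.22. The coding sequences of Myoz1 and Myoz2 are much less alike than those of the alpha-actinins, at 46.0% identity and with no shared run longer than 12 bases.

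Of the 7 PDZ-LIM genes, Ldb3, which encodes the Z-disc protein ZASP or Cypher (chromosome 14, 34526603 to 34588682, minus strand), was highest at 905 and 849 TPM. It held 51.0% ± 2.74 of the summed PDZ-LIM TPM. Pdlim7, also called Enigma (chromosome 13, 55495795 to 55513676, minus strand), stood at 253 and 298 TPM, and Pdlim3, the actinin-associated LIM protein (chromosome 8, 45885461 to 45919548, plus strand), at 234 and 281 TPM. Pdlim7 held 14.8% and 17.2% of the family and Pdlim3 13.7% and 16.2%. Ldb3 exceeded Pdlim3 by a log2 ratio of 1.77 ± 0.25 and Pdlim7 by 1.67 ± 0.23. Pdlim3 and Pdlim7 differed by only -0.10 ± 0.02, and read counts not divided by length put Pdlim3 above Pdlim7, at 0.69. The second quantification put Pdlim7 higher, at 447 and 525 TPM, so that Pdlim3 over Pdlim7 was -0.57 and Ldb3 over Pdlim7 1.21. Pdlim5, or ENH, was close to them at 244 and 220 TPM, followed by Pdlim1 at 63.5 and 69.4, Pdlim4 at 7.40 and 9.17 and Pdlim2 at 2.21 and 3.05 TPM.

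**Figure D2:**
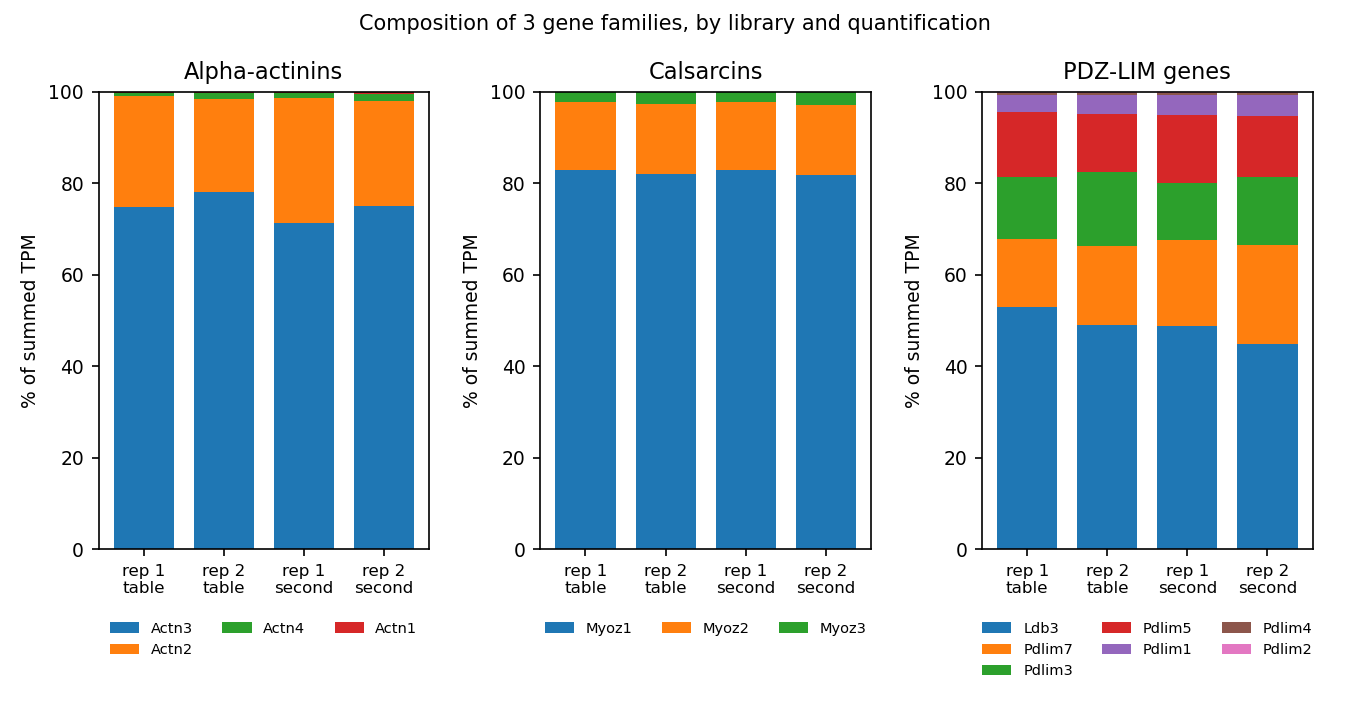
Share of the summed TPM of each gene family held by each gene, in percent, for replicates 1 and 2 of the gene tables and of the second quantification. Actn3, Myoz1 and Ldb3 form the bottom block of their panels in all 4 bars, with mean shares of 76.5%, 82.5% and 51.0% in the gene tables.

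The titin cap Tcap (chromosome 11, 98383811 to 98384953, plus strand), also known as telethonin, joins the ends of titin molecules in the Z-disc. It stood at 623 and 328 TPM. Its partner Ttn stood at 1963 and 2041 TPM, so Tcap was at 0.317 and 0.161 of the Ttn level. Myotilin, encoded by Myot on chromosome 18 from 44334074 to 44355724 (plus strand), binds alpha-actinin and filamin C. It stood at 424 and 313 TPM. Of its relatives, Mypn stood at 108 and 117 TPM and Palld at 47.5 and 61.8 TPM, so Myot was 3.92-fold and 2.68-fold above Mypn. The intervals of the genes were apart in both libraries for all 13 pairs compared, within and between these families.

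Agreement of the libraries was read as the ratio of replicate 1 over replicate 2 of TMM-scaled counts, against the same ratio of all 15734 genes with a summed count of at least 20. With 1 library on each side there is no test across animals, and the 95% exact binomial intervals cover counting error only. A ratio past 1.5-fold either way was reached by 2 of the 10 genes, both higher in replicate 1. It was reached by 13.5% of all tested genes, 5.65% higher and 7.85% lower in replicate 1. That background includes genes of much lower count than the 10 genes. With a summed count of at least 100, 981 of 12536 genes passed, 429 higher and 552 lower in replicate 1. Shares of genes given below are of the wider set of 15734. The median log2 ratio was 0.19 over the 10 genes, of which 7 were positive. Over all tested genes it was -0.01, with 7651 of 15734 positive. On the TPM scale the medians were 0.04 and -0.17. Library size or spike-in scaling turned some of the positive signs, as given below.

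Tcap had 14877 and 9054 counts, a 2.12-fold ratio with an interval of 2.07 to 2.18, and 3.71% of tested genes had a larger ratio in either direction. On the TPM scale the ratio was 1.90. The second quantification gave Tcap fewer reads, 9630 and 5799, or 0.647 and 0.640 of those in the gene tables, with nearly the same TPM, 629 and 327. Myot had 24779 and 21154 counts and a log2 ratio of 0.60 with an interval of 0.57 to 0.62, which lies across the 1.5-fold line, and 12.9% of tested genes had a larger one. Scaling by library size alone brought Myot to 0.47 and scaling by spike-ins to 0.38, both inside 1.5-fold, while Tcap stayed past it under all 4 scalings. Actn2 followed at 0.38, Myoz1 at 0.25, Ldb3 at 0.21 and Myoz2 at 0.16. Actn3 was at 0.07, but its sign turned on the TPM scale, to -0.07, and with library size or spike-in scaling, to -0.06 and -0.15. Spike-in scaling also turned Myoz2 to -0.06 and Ldb3 to -0.01. Pdlim3, Pdlim7 and Myoz3 lay between -0.10 and -0.09.

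**Figure D3:**
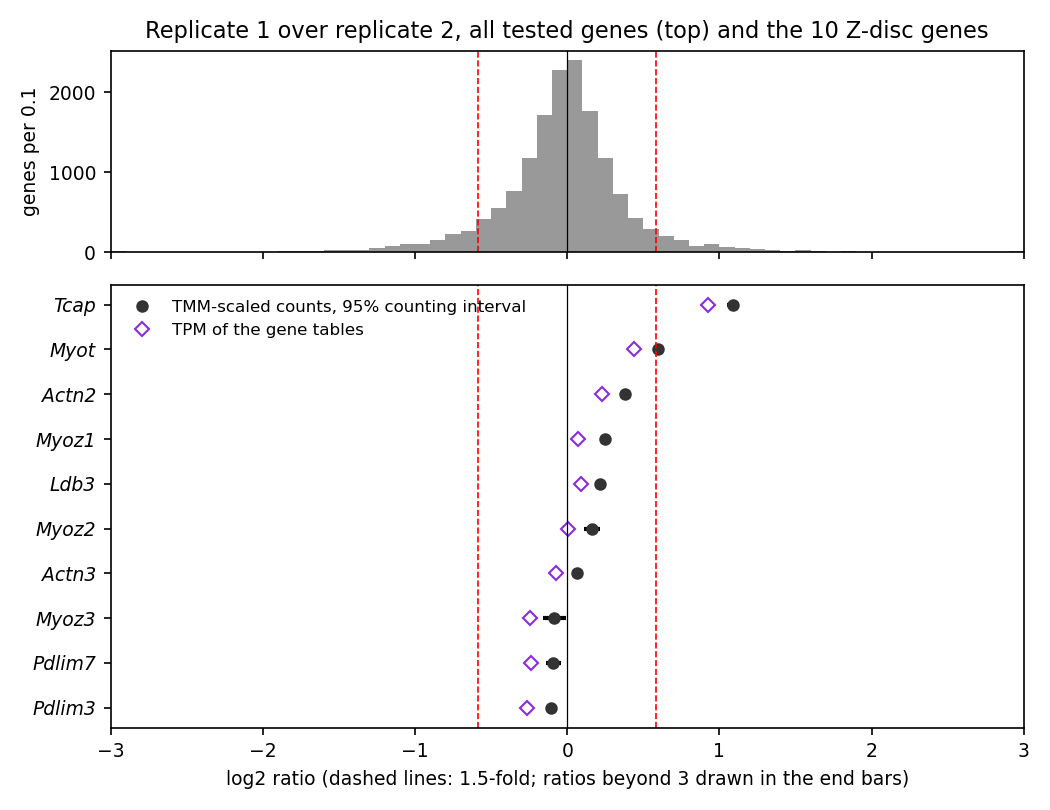
Log2 ratio of replicate 1 over replicate 2, as a histogram of all 15734 tested genes and for each of the 10 genes, with filled circles for TMM-scaled counts and their 95% counting intervals, open diamonds for TPM and dashed lines at 1.5-fold. Tcap lies outside the dashed lines on both scales and Myot on the line for counts and inside it for TPM.

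Some marker lists of fibre types and of other cells also differed between the libraries, and their part in the ratios of the 10 genes was not tested. Of the 9 slow-fibre genes, Myh7, Myl2, Tnni1, Tnnt1 and Tnnc1 were lower in replicate 1 past 1.5-fold, as were 7.85% of all tested genes, and the median log2 ratio was -0.59. The slow-fibre genes Mybpc1, at 743 and 630 TPM, and Casq2, at 55.1 and 56.4 TPM, had positive log2 ratios of 0.40 and 0.14. Of the 11 fast-fibre genes none passed 1.5-fold, and the median was 0.08. The 7 fibroblast markers summed to 2808 and 4521 TPM, most of it from the collagens Col1a1, Col3a1 and Col1a2. Col1a1 was lower in replicate 1 past 1.5-fold. The median of the 7 was -0.24, and only Pdgfra was positive, at 0.06. The 8 smooth muscle markers, led by Des, Acta2 and Rgs5, summed to 1004 and 1236 TPM, most of it from Des, which muscle fibres also express. Acta2, Tagln and Cnn1 were lower in replicate 1 past 1.5-fold, while Des, Rgs5 and Lmod1 had positive log2 ratios of 0.10, 0.20 and 0.20, and the median was -0.15. The 5 tendon markers, led by Fmod, Thbs4 and Tnmd, had a median of -0.46. The 5 endothelial markers, with Cdh5 highest and then Pecam1 and Egfl7, had a median of 0.20, with Kdr and Tek negative at -0.10 and -0.08. On the TPM scale the endothelial median was -0.04, and the sums were 175 and 171 TPM. No gene of either list passed 1.5-fold.

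Of 31 other Z-disc genes, 30 reached 1 TPM in both libraries, led by the giant proteins Neb and Ttn at 2119 and 2149 and at 1963 and 2041 TPM, and by desmin, Des, at 734 and 762 TPM. Of these 31 genes, 5 were past 1.5-fold, against 13.5% of all tested genes. The one higher in replicate 1 was Trim63, a ubiquitin ligase of the sarcomere, at 78.5 and 50.2 TPM. Lower in replicate 1 were Csrp3, the muscle LIM protein that binds Tcap and alpha-actinin, at 73.9 and 152 TPM, Xirp1 at 25.8 and 49.0 TPM, Fhl2 at 2.99 and 5.36 TPM and Fbxl22 at 5.93 and 15.9 TPM, whose log2 ratio of -1.26 was larger in size than that of Tcap. The median over the 31 genes was 0.02. The 11 genes of calcineurin and NFAT, the pathway that calsarcins bind, were all at 1 TPM or more, led by the subunits Ppp3r1 at 74.3 and 86.9, Ppp3ca at 62.6 and 68.0 and Ppp3cb at 47.4 and 49.0 TPM. None of the 11 passed 1.5-fold, and their median was -0.03. Of the family relatives, only Actn1 of the non-muscle alpha-actinins passed 1.5-fold, lower in replicate 1, while none of the 4 other PDZ-LIM genes and neither of Mypn and Palld did.

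**Figure D4:**
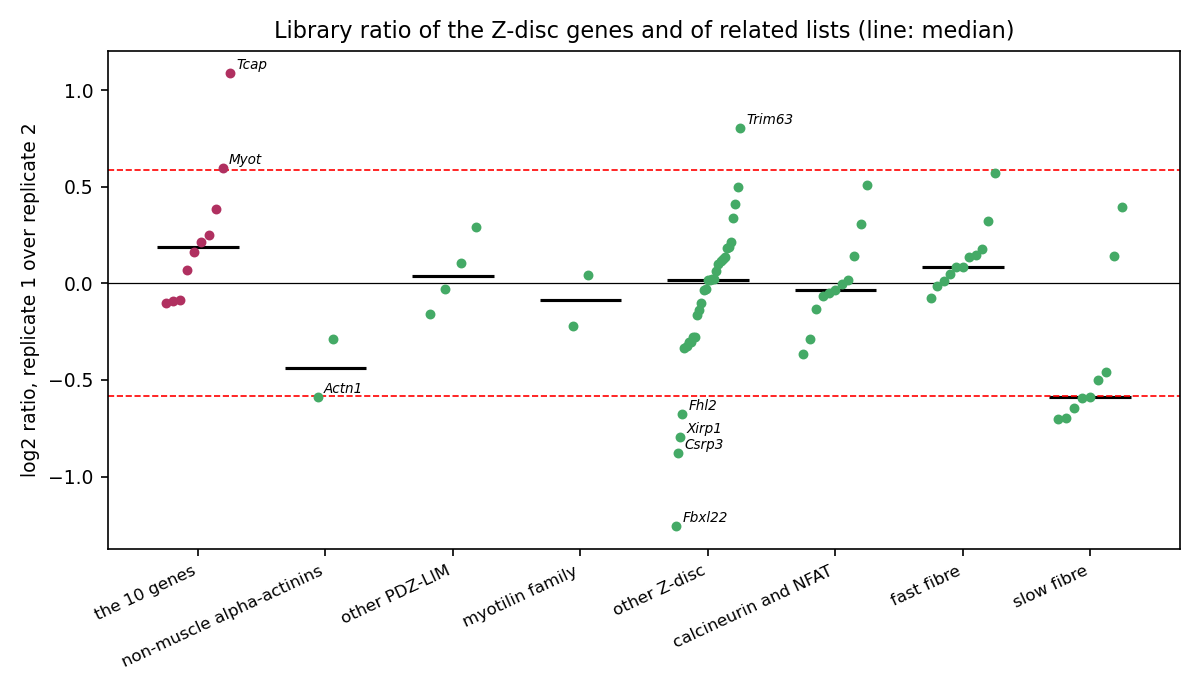
Log2 ratio of replicate 1 over replicate 2 of TMM-scaled counts for each tested gene of 8 lists, with a horizontal line at each median, dashed lines at 1.5-fold and names for genes past it outside the slow-fibre list. The slow-fibre genes lie mostly below 0, with a median of -0.59, and the 10 genes spread upward to Tcap at 1.09.

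By likeness of level, measured as the summed absolute difference in log2 TPM over the 2 libraries, the nuclear protein-coding gene nearest to Tcap was Fabp3, a fatty acid carrier, at 601 and 323 TPM and a difference of 0.08. Ckmt2, mitochondrial creatine kinase, at 494 and 294 TPM, and the globin gene Hba-a2, at 777 and 397 TPM, came next. The neighbours of Actn3 were Actc1, Casq1 and Eno3, those of Actn2 were Cox4i1, Atp5g3 and Ak1, and those of Ldb3 were Pde4dip, Ak1 and Atp5g3. Those of Myoz1 were Atp5a1, Fth1 and Myh2, of Myoz2 Pcbp2, Fxr1 and Coq9, and of Myoz3 Prob1, Kpnb1 and Uqcc3. Pdlim7 was nearest to Rps9, Capzb and Rpsa, and Pdlim3 to Eef1g, Nfix and Rps27a. With 2 libraries such likeness is mostly likeness of level.

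The annotation gave them 43 transcripts, of which 16 reached 5% of their gene in either library, and 5 genes had a single such transcript. For all 10 genes the most abundant transcript was the same in both libraries and in both quantifications. For Myoz3 and Tcap both results were fixed, since the annotation gave each a single transcript.

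Ldb3 gave mostly short forms. Ldb3-207, with a coding sequence of 864 bases, held 75.8% and 73.7% of the gene's TPM, and the long forms together 24.2% and 26.3%. The long forms end in coding exons that encode LIM domains, zinc-binding modules that the short forms lack. Ldb3-205, of 2052 coding bases, held 15.3% and 17.0%, and Ldb3-208 held 6.72% and 7.57%. The second quantification gave 72.9% and 70.8% for Ldb3-207 and 18.3% and 19.8% for Ldb3-205. Since the long transcripts draw more reads per molecule, Ldb3-207 held only 52.7% and 49.9% of the expected counts. Pdlim7 likewise gave mostly a short form, Pdlim7-202, of 564 coding bases, at 93.8% and 91.7%. Its long LIM form, of 1371 coding bases, held 0.820% and 1.60%. The second quantification gave Pdlim7-202 73.1% and 70.6%, and moved 21.5% and 22.7% to Pdlim7-210. That transcript held only 221 and 309 counts there, 4.11% and 4.20% of the gene's counts, and its TPM rests on an effective length of 91.3 and 88.3 bases.

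Both short forms end in a coding segment of 94 bases that the long forms do not use, shown because it defines the predominant form of both genes. Capitals mark the bases that the segments share, 55 of 94, for Ldb3-207 (chr14:34561788-34561881, minus strand) and Pdlim7-202 (chr13:55507030-55507123, minus strand).
Ldb3 short end: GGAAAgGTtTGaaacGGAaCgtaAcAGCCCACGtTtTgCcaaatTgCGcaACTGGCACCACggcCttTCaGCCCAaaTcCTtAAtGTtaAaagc
Pdlim7 short end: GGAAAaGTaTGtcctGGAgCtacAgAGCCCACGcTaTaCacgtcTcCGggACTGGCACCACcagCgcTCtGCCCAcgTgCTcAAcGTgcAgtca
The shared bases were 58.5% of the segment. The long forms Ldb3-205 and Pdlim7-201 also match in the lengths of the 3 coding segments before the last, 181, 121 and 116 bases, with identities of 56.9%, 67.8% and 65.5%. The segment of 121 bases, the most alike, is shown for Ldb3 as an example of the exons that the long forms add (chr14:34541868-34541988, minus strand).
Ldb3 long-form segment: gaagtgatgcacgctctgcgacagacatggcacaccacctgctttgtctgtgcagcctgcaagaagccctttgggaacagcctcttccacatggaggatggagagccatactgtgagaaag

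Ldb3 also has exons that exclude each other near the start of the gene. Transcripts with the exon of 204 bases (chr14:34571718-34571921) held 98.7% and 98.9% of the TPM, and those with the exon of 359 bases (chr14:34576986-34577344) 1.26% and 1.08%. In mouse, the heart and skeletal muscle forms of this gene differ by such a swap of exons. An exon of 186 bases (chr14:34555343-34555528) was in transcripts holding 17.5% and 18.7%.

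Pdlim3 was the most evenly divided gene. Pdlim3-203, of 1092 coding bases, held 61.3% and 61.6%, and Pdlim3-201, of 948 coding bases, 36.3% and 36.7%, and the second quantification gave 61.7% and 62.7% and 37.2% and 36.4%. The gap between the transcripts was much larger than the SD between libraries, 0.191 for Pdlim3-203 and 0.290 percentage points for Pdlim3-201. They differ in alternative coding exons on the plus strand of chromosome 8, with exons of 68 and 264 bases in Pdlim3-203 (chr8:45909019-45909086 and chr8:45913697-45913960) and one of 188 bases in Pdlim3-201 (chr8:45908469-45908656).
Pdlim3-203 exon of 68 bases: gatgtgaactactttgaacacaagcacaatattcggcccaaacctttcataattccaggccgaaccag
Pdlim3-203 exon of 264 bases: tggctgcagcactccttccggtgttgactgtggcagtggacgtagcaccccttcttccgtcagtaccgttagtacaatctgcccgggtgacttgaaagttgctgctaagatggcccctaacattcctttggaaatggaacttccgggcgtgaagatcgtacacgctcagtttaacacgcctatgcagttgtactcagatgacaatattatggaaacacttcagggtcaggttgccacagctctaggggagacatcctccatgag
Pdlim3-201 exon of 188 bases: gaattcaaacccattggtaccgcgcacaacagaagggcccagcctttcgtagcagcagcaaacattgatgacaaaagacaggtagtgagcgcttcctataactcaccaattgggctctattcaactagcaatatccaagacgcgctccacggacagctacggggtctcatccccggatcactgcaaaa

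**Figure D5:**
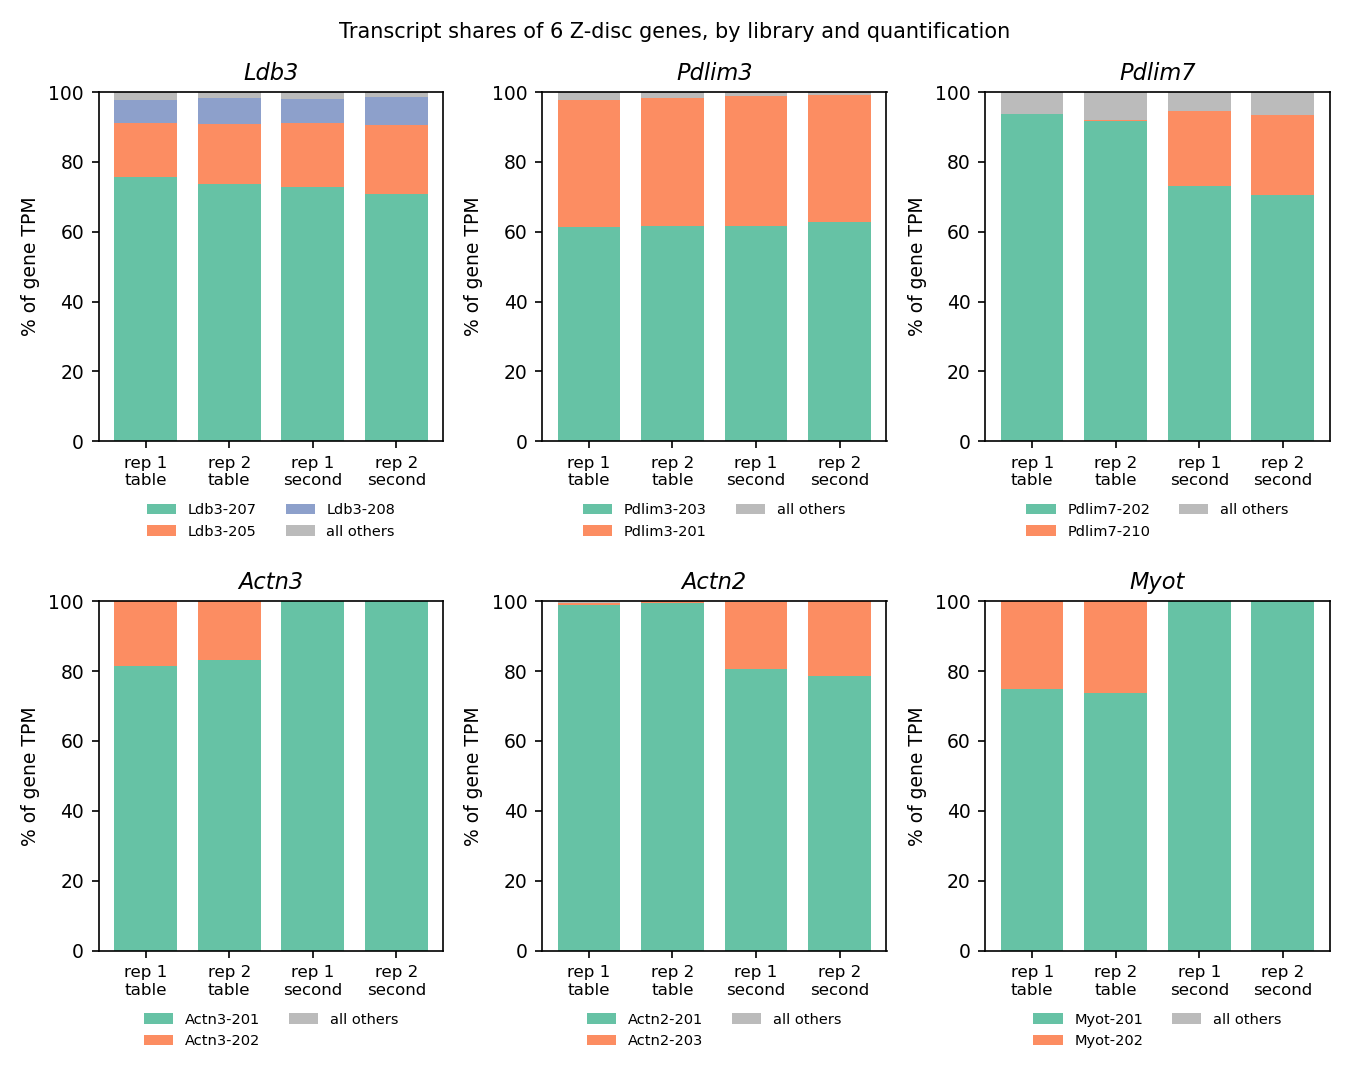
Share of each gene's TPM held by its transcripts, in percent, for 6 genes, in replicates 1 and 2 of the gene tables and of the second quantification. For Ldb3 and Pdlim3 the 4 bars are alike, while Pdlim7, Actn3, Actn2 and Myot divide differently in the second quantification.

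The quantifications divided Actn3, Myoz1, Actn2 and Myot differently between transcripts with few or no bases of their own. Bases of its own are here those absent from the most abundant transcript of the gene. A transcript with none can still differ by bases it lacks. Actn3-201 held 81.4% and 83.3% in the transcript tables and 100% in the second quantification, the rest going to Actn3-202, a retained-intron transcript with only 14 bases of its own, at 18.6% and 16.7%. Myoz1-201 held 88.2% and 86.8%, and the retained-intron Myoz1-203, with 64 bases of its own, 11.2% and 12.6% and 0 in the second quantification. Actn2-201 held 99.0% and 99.5%, but 80.6% and 78.6% in the second quantification, where Actn2-203 held 19.1% and 21.4%. Actn2-203 has the same coding sequence and no bases of its own, but lacks 93 bases of Actn2-201 and has 22 exons against 21. Myot-201 held 74.8% and 73.7%, and Myot-202 held 25.2% and 26.3%, near 0 in the second quantification. Myot-202 also has the same coding sequence and no bases of its own, but lacks 122 bases of Myot-201. Myoz2-201 held 92.9% and 94.5%. Myoz3-201 and Tcap-201, each the only annotated transcript of its gene, held 100% by definition.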

How the data were processed

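Total RNA (300 ng a library) of 2 gastrocnemius libraries of 1 group was analysed from processed tables. For each library the authors deposited a gene table, a transcript table and a second transcript table. The first pair hold expected counts, possibly fractional, per the file headers. The authors' TPM is deposited beside them, with a posterior mean, an interval and a posterior standard deviation. The deposited isoform percent gives how a gene's TPM divides among its transcripts. The other deposited table lists estimated counts and TPM by transcript, summed here by gene as the second quantification. The deposited notes name mm10 and GENCODE M21; which aligner and quantifiers were used is not given in the sources used here. GENCODE M21 held all 55536 gene IDs and supplied symbols, coordinates counted from 1 and exon sequences. A further 26248 rows named by a number, with 1 and 0 counts, and a phiX row were left out.

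Depth was 35592003 and 42105856 counts over genes, with a further 285877 and 317175 over spike-ins. For ratios, edgeR 4.0.16 scaled rounded expected counts by TMM (factors 0.957 and 1.05), with a prior of 0.5 and a summed count of at least 20, and 95% exact binomial (Clopper-Pearson) intervals, which cover counting error only; reads without molecular identifiers are not independent molecules. The ratio calculation was tested on simulated data. Because 1 library stands on each side, no count test was run. DESeq2 1.42.0 gave alternative size factors. Software was Biopython 1.88, matplotlib 3.10.9, numpy 2.4.6, pandas 2.3.3, Python 3.11.15 and R 4.3.3. Alternatives were the second quantification, posterior means, counts without length, other scalings, filters and thresholds, and leaving out a library.

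The members and lists were chosen with earlier results of these data known. The text names all 10 genes, the 3 highest of each other list, the family relatives, the 3 nearest genes in level and transcripts at 5% or more; the nearest genes of Myot are not reported here. Other names, among them the called list genes outside those, were chosen after their values were seen.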

Additional observations from a re-analysis of the deposited data

How the results depend on the processing

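Of the 45 pairs of the 10 genes, all 45 had the order of their mean TPM in both libraries in the gene tables, 41 in the second quantification and 39 by read counts without division by length. The Actn3 share was 73.2% with the second quantification and 73.3% with read counts, the Myoz1 share 78.7% with read counts, and the Ldb3 share 46.8% with the second quantification and 63.1% with read counts. Leaving out a library gave 74.9% to 78.2% for Actn3, 82.0% to 82.9% for Myoz1 and 49.1% to 52.9% for Ldb3. Read counts turned the Pdlim3 over Pdlim7 log2 ratio to 0.69. Genes past 1.5-fold numbered 2124 of 15734 tested, and 733 of the same 15734 were past 2-fold. With no filter on low counts 8580 of 24859 passed 1.5-fold, and with a summed count of at least 100 it was 981 of 12536. Of the 10 genes, 2 were past 1.5-fold, and 1 with library size alone, with spike-in totals or past 2-fold. The gene lost was Myot in each, at 0.47, 0.38 and 0.60, and Tcap was called in all. Scaling by library size moved the median of all genes to -0.14 and by spike-ins to -0.23. No paired analysis was possible because the series held only 1 group. Leaving out a library leaves no ratio, so the fold counts have no such value. With 2 libraries no variance across animals can be tested, and low counts limit the background of genes more than the 10 genes, the lowest of which, Myoz3, had 2476 and 3396.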
